A study of Homo sapiens with 10 samples.

Results

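EREG, MAP3K8, DUSP4 and SPRY1 sit at successive points of signalling through the epidermal growth factor receptor (EGFR) and the kinase ERK: a ligand, a kinase upstream of ERK and a pair of negative regulators. They are 4 of the 12082 genes named by a single-symbol probe set in the expression table, and were chosen by symbol, with their differences between the subsets already known. Their own differences are therefore given as a description, without a test. Tests are reported only for other genes, on lists of the pathway and of markers that were also chosen with earlier results known. All 9 of their probe sets were above the filter on low values. The samples came from MDA-MB-231, a human line of basal-like breast cancer that was derived from a metastatic site. They carried pEGFP1-Oct3/4, in which the Oct4A promoter drives GFP, and were kept under neomycin selection as stable transfectants. Breast cancer cells (BCCs) were sorted by GFP intensity into the lowest 5% (Oct4low BCCs, 4 arrays), the population between the extremes (Oct4med BCCs, 2 arrays) and the top 5% (Oct4hi BCCs, 4 arrays). Total RNA (100 ng) was hybridized to 10 Affymetrix U133 Plus 2.0 arrays, and the values are RMA intensities on the log2 scale, on which a difference of 1 is a 2-fold difference.

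All 3 subsets share the line, the reporter and the selection and differ in reporter fluorescence within 1 transfected line, and the transcript of Oct4 itself is not analysed here. The gate given is that of the labels and methods, and the study's results text gives a wider one for Oct4low BCCs. As a check of the line, 6 of 8 basal and mesenchymal markers had a probe set and 4 passed the filter, while array medians were 5.05 to 5.14. CD44 and CAV1 averaged 11.22 and 12.4 in Oct4low BCCs, 11.12 and 12.26 in Oct4med BCCs and 10.87 and 12.04 in Oct4hi BCCs, and SPARC (6.95 to 7.55) and EGFR (5.79 to 6.15) were dimmer. VIM (3.75 to 4.04) and MSN (4.90 to 5.18) were under the filter, and the luminal markers MLPH (8.37 to 9.24) and GATA3 (6.87 to 7.63) were above the medians too. Each marker was read from the highest of its probe sets left after the authors' own filter. A dim reading, as for VIM, MSN or EGFR, therefore does not show that the gene was low. Of 9 leukocyte markers, 6 had a probe set. CD3D, CD3E and CD14 averaged 5.01 to 5.62, around the medians, and passed the filter, and PTPRC, LYZ and MS4A1 (3.09 to 4.06) did not. Replicates of a subset correlated with r of 0.987 to 0.994. The arrays are labelled as biological replicates, and the p-values cover only the spread among them, which in Oct4med BCCs is known from 2 arrays only. In sorted bulk samples, fewer cells with a transcript and less of it per cell cannot be told apart.

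EGFR ligands are made as membrane proteins, shed by proteases and bound by EGFR, which passes the signal through the adaptors and RAS to the RAF, MEK and ERK kinases. ERK then drives transcription of target genes, among them genes whose products shut the cascade down again. Epiregulin (EREG) is such a ligand for EGFR and ERBB4. MAP3K8, also called TPL2 or COT, phosphorylates MEK by a route that does not need RAF. DUSP4 is a nuclear phosphatase that removes phosphate from ERK, and SPRY1 is a Sprouty protein that restrains signalling from receptor tyrosine kinases. Both are induced by ERK activity.

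The RefSeq promoter windows of 3 of the genes are shown because ETS and AP-1 factors act downstream of ERK, and because the genes had different patterns over the subsets. Windows hold 250 bases before the start of a transcript and 50 from it on (GRCh38.p14, plus strand). Of the 6 windows listed for EREG, MAP3K8 and SPRY1, the 3 that held a searched motif are printed, chosen after the search. Matches are in capitals.
EREG, chr4:74364895-74365194: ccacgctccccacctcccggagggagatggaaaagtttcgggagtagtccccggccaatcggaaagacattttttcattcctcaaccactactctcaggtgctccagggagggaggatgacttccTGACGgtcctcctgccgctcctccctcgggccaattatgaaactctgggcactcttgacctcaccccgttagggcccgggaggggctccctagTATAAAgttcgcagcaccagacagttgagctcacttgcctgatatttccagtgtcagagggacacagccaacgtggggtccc
MAP3K8, chr10:30433934-30434233: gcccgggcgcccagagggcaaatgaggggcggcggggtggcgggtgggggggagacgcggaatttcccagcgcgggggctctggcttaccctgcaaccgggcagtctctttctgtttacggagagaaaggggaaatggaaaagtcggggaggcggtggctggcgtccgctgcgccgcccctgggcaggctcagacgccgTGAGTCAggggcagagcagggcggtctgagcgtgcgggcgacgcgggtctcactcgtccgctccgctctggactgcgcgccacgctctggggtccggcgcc
SPRY1, chr4:123398136-123398435: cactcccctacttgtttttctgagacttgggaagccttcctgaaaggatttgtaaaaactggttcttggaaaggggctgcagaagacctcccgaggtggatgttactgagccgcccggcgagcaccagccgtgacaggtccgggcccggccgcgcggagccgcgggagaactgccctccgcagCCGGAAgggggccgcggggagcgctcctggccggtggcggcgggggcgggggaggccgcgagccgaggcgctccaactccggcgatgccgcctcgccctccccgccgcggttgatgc

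Both strands were searched for AP-1 (TGACTCA), the CRE (TGACGTCA), the CRE core (TGACG, which every CRE contains), ETS (CCGGAA), the CArG box and the TATA box (TATAAA). With the first base of the transcript as +1, the EREG window held a CRE core at -125 to -121 and a TATA box at -32 to -27. The MAP3K8 window held an AP-1 match at -51 to -45, written TGAGTCA on the strand shown. The SPRY1 window held an ETS match at -67 to -62. Over 35116 windows of that length, 4.95% held AP-1, 24.6% the CRE core, 17.2% ETS and 11.5% the TATA box. The CRE (1.85%) and the CArG box (1.29%) had no match in the 6 windows. Such matches are letters in a window and say nothing of binding.

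The 4 genes were lower in Oct4hi than in Oct4low BCCs, but Oct4med BCCs stood at 4 different positions relative to them. In Oct4med BCCs EREG was already at the level of Oct4hi BCCs, both little above the array medians, and MAP3K8 was below both other subsets. In the same subset DUSP4 was between the others and SPRY1 was still at the level of Oct4low BCCs. In Oct4hi against Oct4low BCCs, 7 of the 9 probe sets were lower in every Oct4hi array, where 15.2% of all 13883 tested probe sets were. In Oct4med against Oct4low BCCs the number was also 7 of 9, against a background of 25.1%. In Oct4hi against Oct4med BCCs, 5 were lower and 1 was higher, with backgrounds of 18.2% and 27%. Since the genes were chosen on these differences, nothing is read from the counts. Over all tested probe sets the median difference was -0.005, 0.011 and 0.016 in the same 3 comparisons. The Oct4low arrays serve in both comparisons with Oct4low BCCs.

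**Figure D1:**
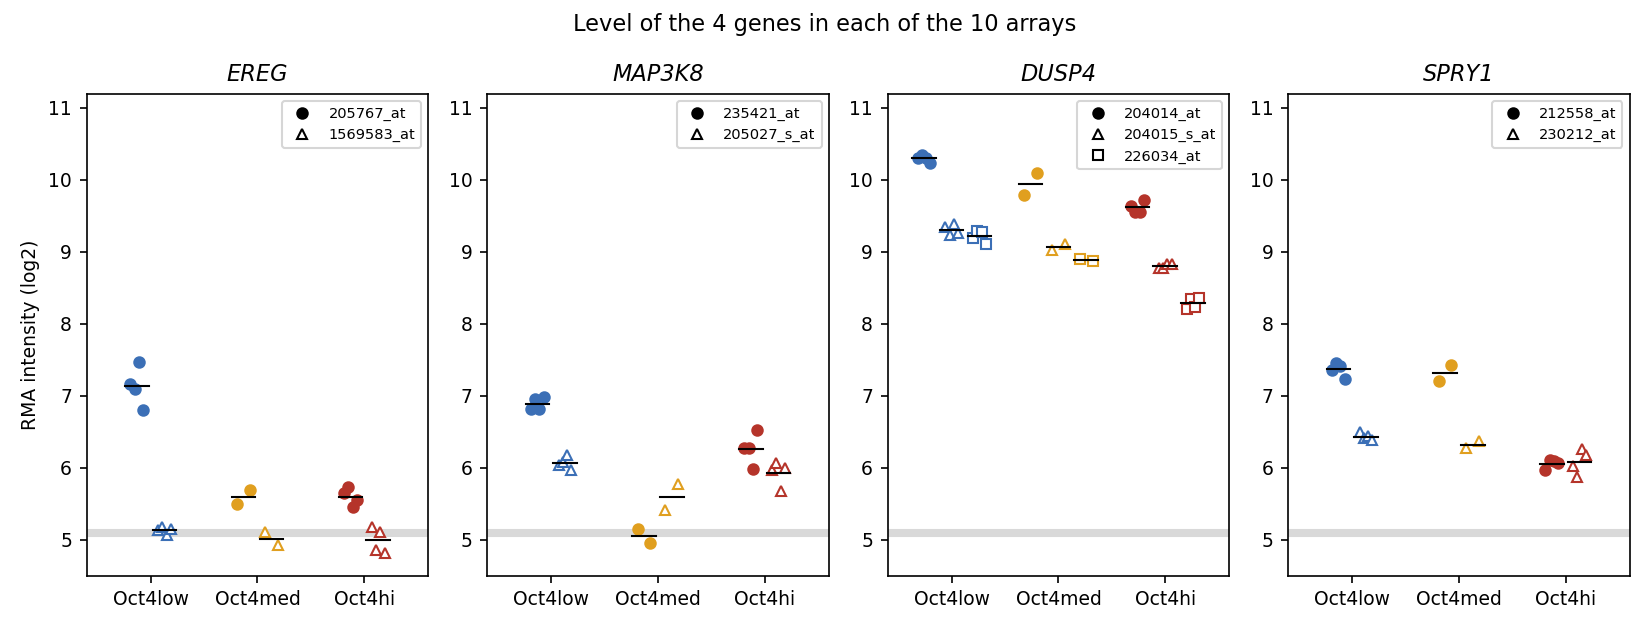
RMA intensity (log2, vertical axis) of each probe set of EREG, MAP3K8, DUSP4 and SPRY1 in Oct4low (blue, 4 arrays), Oct4med (yellow, 2 arrays) and Oct4hi BCCs (red, 4 arrays). Each symbol is an array, filled for the probe set with the highest mean, black lines are means and the grey band is the range of array medians (5.05 to 5.14). EREG drops below Oct4low BCCs in both other subsets, MAP3K8 is lowest in Oct4med BCCs, DUSP4 steps down at each subset and SPRY1 drops only in Oct4hi BCCs.

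EREG was higher in Oct4low BCCs than in either of the other subsets, which overlapped each other. The gene lies at chr4:74365145-74388749 and is represented by 205767_at, its probe set with the highest mean. It read 7.17, 7.09, 7.47 and 6.80 in Oct4low BCCs, 5.49 and 5.69 in Oct4med BCCs, and 5.65, 5.73, 5.46 and 5.55 in Oct4hi BCCs. Every Oct4low array was above all 6 others, by at least 1.07, while the Oct4med values lay within the range of the Oct4hi values. The means were 7.13 ± 0.28 in Oct4low BCCs, 5.59 ± 0.14 in Oct4med BCCs and 5.60 ± 0.12 in Oct4hi BCCs (SD, n = 4, 2 and 4). The Oct4hi minus Oct4low difference was -1.53 (SE 0.12 from limma, 2.89-fold lower), at rank 5 from the lowest of the 13883 tested probe sets. The Oct4med minus Oct4low difference was -1.54 (SE 0.15, 2.91-fold lower), at rank 81. Oct4hi and Oct4med BCCs differed by 0.01 (SE 0.15), less than the spread between replicates. The values of both subsets were little above the array medians, ranking at 57.2% to 63% from the lowest in their arrays. Detection calls were not used, so these levels may be partly background. The folds and the likeness of the 2 subsets are therefore uncertain. The second probe set, 1569583_at, lay near the array medians, with 5.06 to 5.18 in Oct4low BCCs, 4.93 to 5.10 in Oct4med BCCs and 4.81 to 5.18 in Oct4hi BCCs. Its arrays overlapped in each comparison, and its differences were -0.14, -0.12 and -0.02. The pattern of EREG thus rests on 1 probe set.

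MAP3K8 had the widest separation of Oct4med BCCs among the 4 genes. It lies at chr10:30434021-30461833, and its probe set with the highest mean was 235421_at. The values were 6.82, 6.95, 6.81 and 6.98 in Oct4low BCCs, 5.15 and 4.96 in Oct4med BCCs, and 6.28, 6.27, 5.98 and 6.53 in Oct4hi BCCs. No arrays of different subsets overlapped, and 1 of the 2 Oct4med arrays was under the median of its array. The means were 6.89 ± 0.09 in Oct4low BCCs, 5.05 ± 0.13 in Oct4med BCCs and 6.27 ± 0.23 in Oct4hi BCCs (SD, n = 4, 2 and 4). Oct4hi BCCs were lower than Oct4low BCCs by 0.62 (difference -0.62, SE 0.11, 1.54-fold lower). Detection calls were not used here, and a level near the array median may be background, so folds against Oct4med BCCs on this probe set are uncertain. On it, Oct4med BCCs were 3.58-fold lower than Oct4low BCCs (difference -1.84, SE 0.13). Relative to Oct4med BCCs, Oct4hi BCCs were 2.32-fold higher (difference 1.22, SE 0.13). The order was thus Oct4med, Oct4hi and then Oct4low BCCs, with a gap of 0.84 between the first pair and 0.28 between the second.

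The other probe set of MAP3K8, 205027_s_at, had the same order of means with smaller differences. It read 6.04, 6.08, 6.18 and 5.97 in Oct4low BCCs, 5.41 and 5.78 in Oct4med BCCs, and 5.97, 6.07, 5.68 and 5.99 in Oct4hi BCCs. Only Oct4med and Oct4low BCCs did not overlap, with a difference of -0.47 (SE 0.13, 1.39-fold lower in Oct4med BCCs). The Oct4hi values overlapped both others, with differences of -0.14 to Oct4low BCCs and 0.33 to Oct4med BCCs. Several other measures also set the 2 Oct4med arrays apart. Of 21 immediate-early genes, which respond within minutes to growth factors and to handling, 14 were tested. Their mean level was 9.90 to 9.95 in Oct4low, 9.26 in both Oct4med and 9.66 to 9.72 in Oct4hi arrays, and 11 of the 14 were lower in Oct4med than in Oct4low BCCs with none higher (limma, adjusted p under 0.05, with a background of 11.7% of all genes lower). In Oct4hi against Oct4low BCCs 8 of the 14 were lower and 1 was higher, where 14.7% of all genes were lower. The 28S ribosomal RNA control AFFX-M27830_5_at averaged 13.6 in Oct4low BCCs, 12.7 in Oct4med BCCs and 13.57 in Oct4hi BCCs. In the same order, AFFX-M27830_M_at averaged 11.98, 11.5 and 11.87. Other controls were not lowest in Oct4med BCCs, such as AFFX-M27830_3_at (5.3, 5.27 and 5.21) and AFFX-HUMRGE/M10098_M_at (12.84, 12.98 and 13.14). The part of these measures in the MAP3K8 values, or in those of any other gene in Oct4med BCCs, was not tested.

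DUSP4 was ordered Oct4low, Oct4med, Oct4hi BCCs, highest first, on all 3 of its probe sets and without overlap on any. The gene lies at chr8:29333064-29350684. Its probe set with the highest mean, 204014_at, read 10.31, 10.34, 10.30 and 10.24 in Oct4low BCCs, 9.79 and 10.10 in Oct4med BCCs, and 9.63, 9.56, 9.56 and 9.72 in Oct4hi BCCs. The Oct4med arrays were unlike each other, 1 near the Oct4hi values and 1 near the Oct4low values. Means were 10.30 ± 0.04 in Oct4low BCCs, 9.95 ± 0.22 in Oct4med BCCs and 9.62 ± 0.07 in Oct4hi BCCs (SD, n = 4, 2 and 4). The Oct4hi minus Oct4low difference was -0.68 (SE 0.08, 1.61-fold lower), and the step from Oct4low to Oct4hi BCCs was 51.8% complete in Oct4med BCCs. Oct4med minus Oct4low was -0.35 (SE 0.10), and became -0.20 without Oct4med replicate 1 and -0.51 without Oct4med replicate 2. Oct4hi minus Oct4med was -0.33 (SE 0.10), and became -0.49 and -0.17 without the same arrays.

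The other DUSP4 probe sets had more closely spaced Oct4med arrays. On 226034_at the values were 9.19, 9.29, 9.27 and 9.11 in Oct4low BCCs, 8.90 and 8.87 in Oct4med BCCs, and 8.20, 8.35, 8.23 and 8.36 in Oct4hi BCCs. The Oct4hi minus Oct4low difference there was -0.93 (SE 0.07, 1.91-fold lower), the largest of the 3 probe sets, with -0.33 for Oct4med minus Oct4low and -0.60 for Oct4hi minus Oct4med. On 204015_s_at the values were 9.35, 9.24, 9.39 and 9.26 in Oct4low BCCs, 9.02 and 9.11 in Oct4med BCCs, and 8.77, 8.77, 8.83 and 8.83 in Oct4hi BCCs. The differences were -0.51, -0.24 and -0.27 in the same order. Oct4med BCCs thus reached 35.1% to 51.8% of the step, depending on the probe set. The share on 204014_at was 28.8% without Oct4med replicate 1 and 74.8% without Oct4med replicate 2, so 1 array decides whether DUSP4 stood near the middle there.

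SPRY1 separated Oct4hi BCCs from both other subsets. The gene lies at chr4:123396795-123403760, and 212558_at had the highest mean. The values were 7.36, 7.46, 7.42 and 7.23 in Oct4low BCCs, 7.21 and 7.43 in Oct4med BCCs, and 5.97, 6.11, 6.09 and 6.06 in Oct4hi BCCs. Every Oct4hi array was below all 6 others, by at least 1.10, and the Oct4med values overlapped the Oct4low values. The means were 7.37 ± 0.10 in Oct4low BCCs, 7.32 ± 0.15 in Oct4med BCCs and 6.06 ± 0.06 in Oct4hi BCCs (SD, n = 4, 2 and 4). Oct4hi BCCs were 2.48-fold lower than Oct4low BCCs (difference -1.31, SE 0.08, rank 21 from the lowest) and 2.39-fold lower than Oct4med BCCs (difference -1.26, SE 0.10, rank 5). Oct4med and Oct4low BCCs differed by -0.05 (SE 0.10). That small difference had no settled sign, being 0.06 without Oct4med replicate 1, -0.16 without Oct4med replicate 2 and 0.05 after the values were quantile normalized again.

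The second SPRY1 probe set, 230212_at, again had its lowest values in Oct4hi BCCs. It read 6.49, 6.41, 6.44 and 6.39 in Oct4low BCCs, 6.27 and 6.37 in Oct4med BCCs, and 6.02, 5.87, 6.26 and 6.17 in Oct4hi BCCs. The 3 subsets did not overlap, but only by 0.02 at either boundary of Oct4med BCCs. The differences were -0.35 for Oct4hi minus Oct4low, -0.11 for Oct4med minus Oct4low and -0.25 for Oct4hi minus Oct4med.

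**Figure D2:**
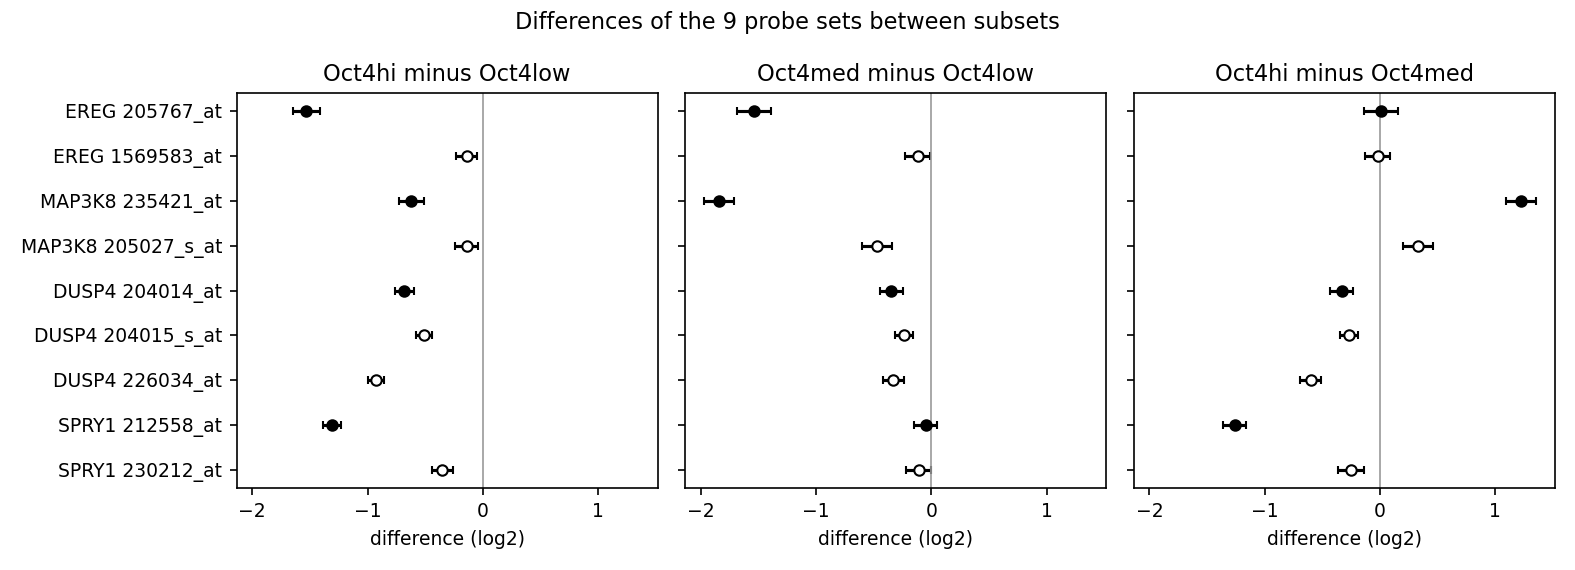
Differences in log2 intensity (horizontal axis) of the 9 probe sets of EREG, MAP3K8, DUSP4 and SPRY1 for Oct4hi minus Oct4low (left), Oct4med minus Oct4low (middle) and Oct4hi minus Oct4med BCCs (right). Points are differences of means, filled for the probe set with the highest mean, and bars are limma standard errors. In the left and middle panels all 9 differences are below 0, and in the right panel 6 are, while MAP3K8 is above 0 at 0.33 and 1.22 and EREG at 0.01.

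The 4 positions of Oct4med BCCs can be set on 1 scale, the share of the Oct4low to Oct4hi difference present in Oct4med BCCs. By the probe set with the highest mean, that share was 101% for EREG, 295% for MAP3K8, 51.8% for DUSP4 and 3.84% for SPRY1. The Oct4med level of MAP3K8 may be background, and so may the Oct4med and Oct4hi levels of EREG. Among the 2316 tested probe sets lower in Oct4hi than in Oct4low BCCs (limma, adjusted p under 0.05), the median share was 63.2%. The middle 50% lay between 16.6% and 136%. SPRY1 was below and MAP3K8 above this middle range. The second probe set of SPRY1 gave 30.4%, inside the range, that of MAP3K8 339% and that of EREG 84.7%. A value above 100% was not rare, with 836 of the 2316. Across the 10 arrays, Pearson's r between the genes was 0.898 for DUSP4 and SPRY1, 0.882 for EREG and DUSP4, 0.71 for EREG and MAP3K8, 0.678 for EREG and SPRY1, 0.41 for MAP3K8 and DUSP4 and 0.0261 for MAP3K8 and SPRY1. These r describe 10 arrays that fall into 3 subsets, and share those arrays.

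For each of the 4 genes, the 4 most similar of 7640 other genes were taken by Pearson's r over the 10 arrays. Nearest to EREG were SUSD2 (r = 0.988), VPS13B (0.984), TSC22D1 (0.983) and CCN3, a matricellular protein (0.982). SUSD2 had means of 7.43 in Oct4low BCCs, 6.25 in Oct4med BCCs and 6.35 in Oct4hi BCCs. MAP3K8 was followed by RRAD, a small GTPase of the RGK group (r = 0.985), the neutrophil chemokine CXCL2 (0.982), TMED10 (0.981) and TTC19 (0.979). RRAD had means of 9.87, 8.23 and 9.38 in Oct4low, Oct4med and Oct4hi BCCs, and CXCL2 had 11.78, 10.58 and 11.30. Closest to DUSP4 were the bradykinin receptor BDKRB2 (r = 0.981), STX1A (0.979), the transcription factor SOX4 (0.979) and the transporter SLCO4A1 (0.976). Of these, SOX4 had means of 9.33, 8.78 and 8.03 in the same order. SPRY1 resembled PDE4B, a phosphodiesterase that degrades cyclic AMP (r = 0.994), TM9SF3, PXDN and the type IV collagen chain COL4A5 (0.989 each). PDE4B had means of 6.76 in Oct4low BCCs, 6.56 in Oct4med BCCs and 4.79 in Oct4hi BCCs, and COL4A5 had 7.42, 7.48 and 6.21.

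**Figure D3:**
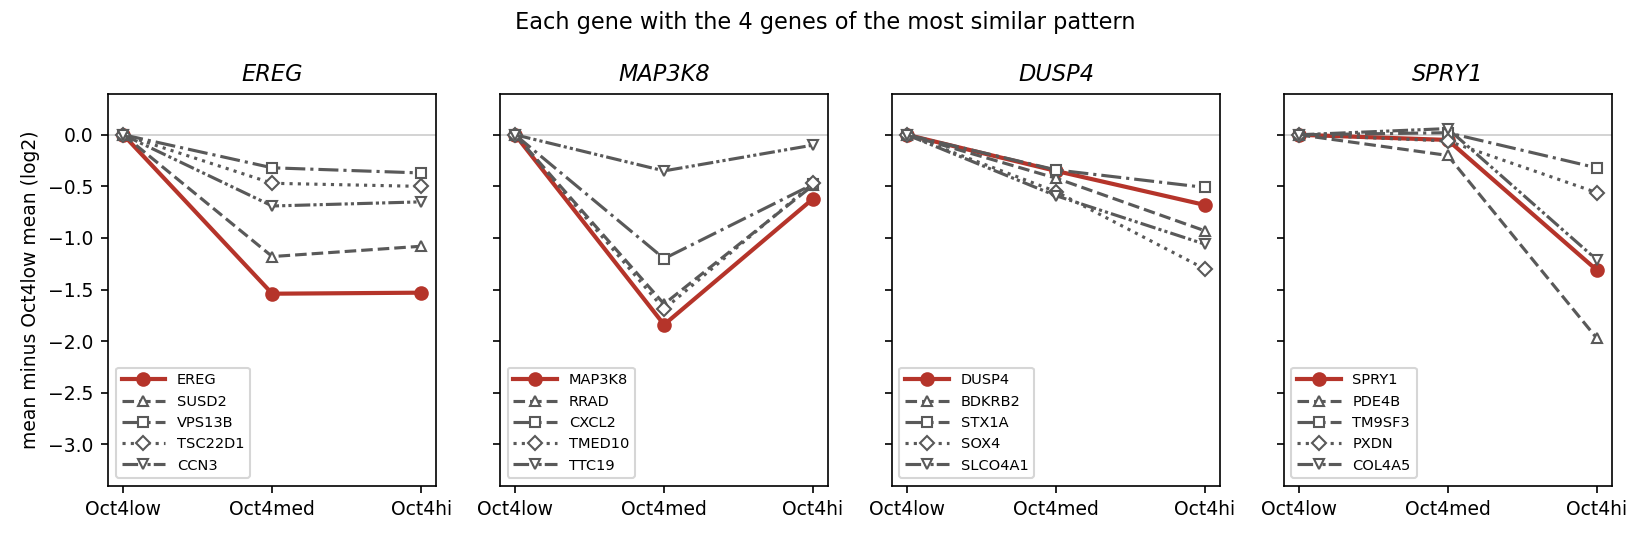
Mean of each subset minus the Oct4low mean (log2, vertical axis) in Oct4low, Oct4med and Oct4hi BCCs, for EREG, MAP3K8, DUSP4 and SPRY1 (red, 1 per panel) and the 4 genes with the highest r to each over 10 arrays (grey). The EREG panel is level after Oct4med BCCs, the MAP3K8 panel turns back up, the DUSP4 panel steps down and the SPRY1 panel falls only at Oct4hi BCCs. The genes were selected for this likeness.

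The other genes of the route came from a list of 81, the 4 genes left out, chosen with earlier results of these data known. Its shares beside those of all genes are therefore a description. Of the 81 genes, 41 were tested. A further 6 had only probe sets under the filter (BTC, NRG1, ERBB2, ERBB4, SPRY3 and SPRED2), and 34 are not analysed here. In Oct4hi against Oct4low BCCs, 19 of the 41 passed the threshold, 9 higher and 10 lower (46.3%). Of the 7644 tested genes 35.2% did, 20.4% higher and 14.7% lower. In Oct4med against Oct4low BCCs 14 passed, 5 higher and 9 lower (34.1%, against 17.4% of all genes, 5.68% higher and 11.7% lower), but only 8 without Oct4med replicate 1. In Oct4hi against Oct4med BCCs 16 passed, 10 higher and 6 lower (39%, against 27.8% of all genes, 18.2% higher and 9.62% lower), and 9 without Oct4med replicate 1. Quantile normalizing the values again turned that last split to 6 higher and 10 lower. Shares of all genes in these alternative settings are not given here. A shift particular to the list therefore cannot be told from a general one. The median difference of the 41 genes was -0.02, -0.06 and -0.05, close to that of all probe sets. All p-values below are from limma, adjusted by Benjamini-Hochberg over the 13883 probe sets.

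**Figure D4:**
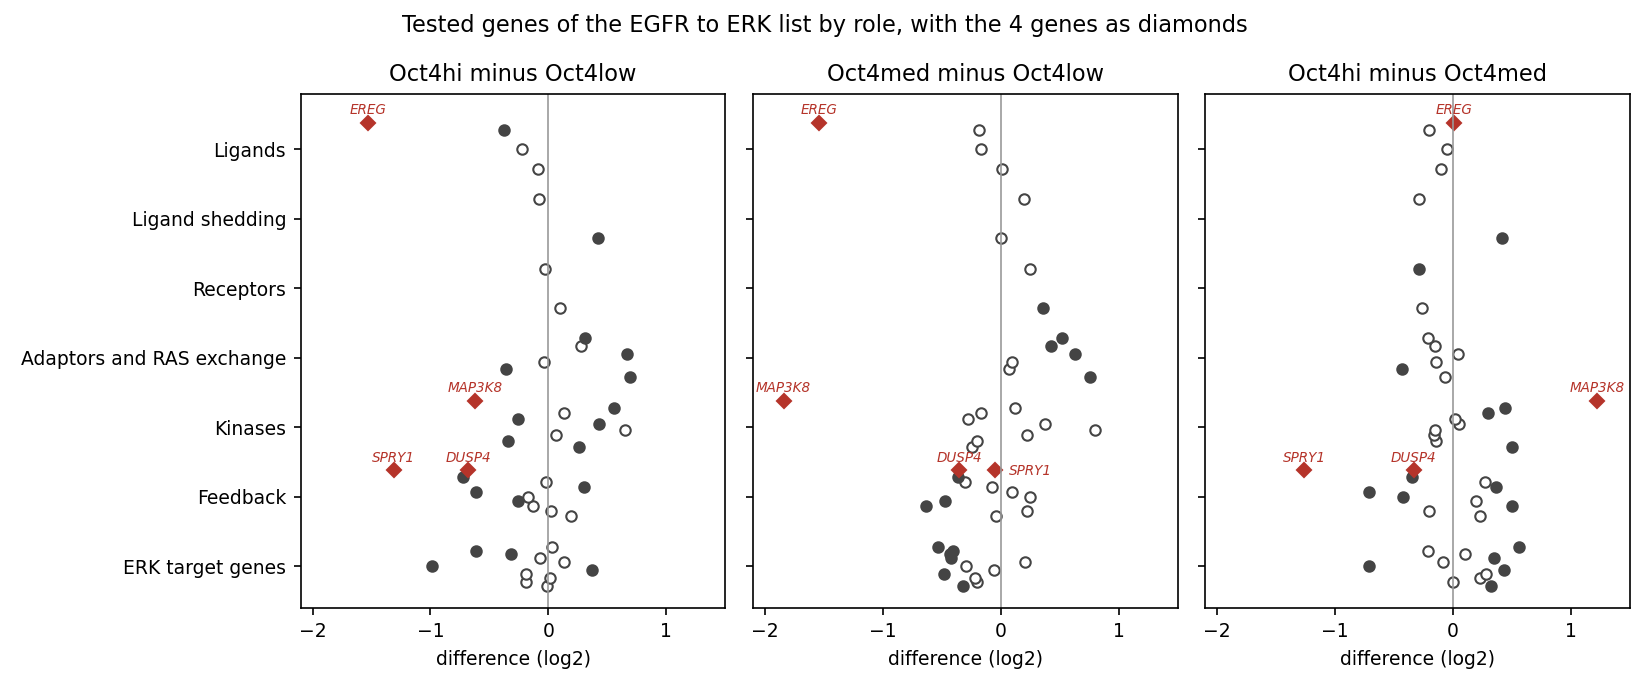
Differences in log2 intensity (horizontal axis) of the 41 tested list genes by role (rows) for Oct4hi minus Oct4low, Oct4med minus Oct4low and Oct4hi minus Oct4med BCCs. Circles are genes, filled where the limma adjusted p was under 0.05, and red diamonds are EREG, MAP3K8, DUSP4 and SPRY1, which were not tested. EREG lies outside the range of the other 3 ligands in the left and middle panels, though HBEGF among them lay near the array medians. EREG was chosen on these differences, so nothing is read from its position. ERK target genes passing the threshold in the middle panel are all below 0.

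Among the other ligands, TGFA alone passed the threshold. Its difference was smaller than that of EREG, but EREG was chosen on its differences, so nothing is read from that. TGFA averaged 8.93 ± 0.09 in Oct4hi BCCs and 9.31 ± 0.13 in Oct4low BCCs (SD, n = 4 each), a difference of -0.38 (SE 0.08, adjusted p = 0.00393). Its other tested probe set, with a mean of 5.38 over all arrays, gave -0.01 for the same comparison (adjusted p = 0.953). HBEGF (-0.09, adjusted p = 0.597) and NRG2 (-0.22, adjusted p = 0.102) did not pass there, and no ligand of the 3 passed in the comparisons with Oct4med BCCs. HBEGF averaged 5.04, 5.05 and 4.95 in Oct4low, Oct4med and Oct4hi BCCs, near the array medians, so its values may be background. ADAM10, a protease that sheds ligands of the family, was higher in Oct4hi BCCs (8.59 ± 0.02) than in Oct4low BCCs (8.17 ± 0.04), by 0.42 (SE 0.06, adjusted p = 0.000568). It was also higher than in Oct4med BCCs, by 0.42 (adjusted p = 0.00283), which its other probe set did not show (0.09, adjusted p = 0.683).

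The receptors had small differences that depended on the probe set. EGFR averaged 5.79 ± 0.06 in Oct4low BCCs, 6.15 ± 0.21 in Oct4med BCCs and 5.89 ± 0.06 in Oct4hi BCCs. Its Oct4med minus Oct4low difference was 0.36 (SE 0.10, adjusted p = 0.0208), and its Oct4hi minus Oct4low difference 0.10 (adjusted p = 0.353). The 3 dimmer EGFR probe sets gave 0.06 to 0.13 for Oct4med minus Oct4low (adjusted p = 0.472 to 0.789). Without Oct4med replicate 1 (0.21, adjusted p = 0.228) or Oct4low replicate 2 (0.34, adjusted p = 0.0539) the EGFR call was lost. ERBB3 was lower in Oct4hi than in Oct4med BCCs by 0.29 (difference -0.29, SE 0.09, adjusted p = 0.034), while its second probe set gave 0.20 (adjusted p = 0.348). The ERBB3 call was lost without any 1 of 5 arrays (Oct4med replicates 1 and 2, Oct4hi replicates 1, 2 and 4), with adjusted p of 0.0594 to 0.181.

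Of 6 adaptors, RAS exchange factors and genes of receptor turnover, 3 were higher and 1 lower in Oct4hi against Oct4low BCCs (20.4% and 14.7% of all genes), and 4 were higher in Oct4med against Oct4low BCCs (5.68% of all genes). CBL, a ubiquitin ligase that marks activated EGFR for degradation, averaged 6.90 ± 0.28 in Oct4low BCCs, 7.66 ± 0.44 in Oct4med BCCs and 7.59 ± 0.32 in Oct4hi BCCs. It rose by 0.69 in Oct4hi BCCs (SE 0.18, adjusted p = 0.0118) and by 0.76 in Oct4med BCCs (SE 0.22, adjusted p = 0.0323). PTPN11 (SHP2), a phosphatase that RAS activation needs, rose by 0.67 in Oct4hi BCCs (SE 0.16, adjusted p = 0.00728) and by 0.63 in Oct4med BCCs (SE 0.20, adjusted p = 0.0423). SOS2, a RAS exchange factor, rose by 0.52 in Oct4med BCCs (SE 0.12, adjusted p = 0.0105) and by 0.31 in Oct4hi BCCs (adjusted p = 0.0288). In Oct4hi against Oct4low BCCs, SOS1 (0.28, adjusted p = 0.0694) and GAB1 (-0.04, adjusted p = 0.812) did not pass. CBLB, a relative of CBL, fell in Oct4hi BCCs, by 0.36 against Oct4low BCCs (adjusted p = 0.00624) and by 0.43 against Oct4med BCCs (adjusted p = 0.0103).

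Several calls of this role rested on few arrays. The Oct4med call of CBL was lost without Oct4low replicate 3, Oct4low replicate 4 or Oct4med replicate 2 (0.45 to 0.69, adjusted p = 0.0732 to 0.254). That of PTPN11 was lost without any 1 of 6 arrays (Oct4low replicates 2 to 4, both Oct4med arrays or Oct4hi replicate 2), at 0.48 to 0.77 with adjusted p of 0.0525 to 0.211. The Oct4med call of SOS2 was lost without either Oct4med array (adjusted p = 0.0525 and 0.0598), its Oct4hi against Oct4low call without Oct4hi replicate 1 or 2 or Oct4low replicate 2 or 3 (0.24 to 0.31, adjusted p = 0.0615 to 0.0917), and the CBLB call against Oct4med BCCs without Oct4med replicate 1 (-0.45, adjusted p = 0.0612).

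Of 8 other kinases of the cascade, 3 were higher and 2 lower in Oct4hi than in Oct4low BCCs (20.4% and 14.7% of all genes). None passed in Oct4med against Oct4low BCCs, where 17.4% of all genes did. MAP3K8 had its largest difference there, but it was chosen on its differences, so nothing is read from the contrast with these 8. RPS6KA3 (RSK2), a kinase activated by ERK, averaged 9.33 ± 0.03 in Oct4low BCCs, 9.45 ± 0.04 in Oct4med BCCs and 9.89 ± 0.04 in Oct4hi BCCs. It rose in Oct4hi BCCs, by 0.56 against Oct4low BCCs (SE 0.06, adjusted p = 6.54e-05) and by 0.44 against Oct4med BCCs (adjusted p = 0.0018). KSR1, a scaffold for RAF, MEK and ERK, fell by 0.34 against Oct4low BCCs (SE 0.07, adjusted p = 0.00349). ARAF, a RAF kinase, rose by 0.26 against Oct4low BCCs (adjusted p = 0.0225) and by 0.50 against Oct4med BCCs (adjusted p = 0.00303). RPS6KA2, a relative of RPS6KA3, rose by 0.30 against Oct4med BCCs (adjusted p = 0.024). The first ARAF call was lost without Oct4low replicate 1 or Oct4hi replicate 3 (0.20 to 0.24, adjusted p = 0.0553 to 0.0595), and that of RPS6KA2 without Oct4med replicate 1 or Oct4hi replicate 4 (0.25 to 0.28, adjusted p = 0.0552 to 0.192).

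Feedback genes included relatives of DUSP4 and SPRY1, and these did not share 1 pattern. SPRY2, a Sprouty protein like SPRY1, read 9.44 ± 0.07 in Oct4low BCCs, 9.08 ± 0.04 in Oct4med BCCs and 8.73 ± 0.03 in Oct4hi BCCs (SD, n = 4, 2 and 4), with no overlap. The steps of SPRY2 were even, unlike the late drop of SPRY1. Its differences were -0.72 for Oct4hi minus Oct4low (SE 0.07, adjusted p = 1.24e-05), -0.36 for Oct4med minus Oct4low (adjusted p = 0.00843, or 0.0508 without Oct4med replicate 2) and -0.35 for Oct4hi minus Oct4med (adjusted p = 0.00826). LRIG1, which promotes breakdown of EGFR, averaged 9.60 ± 0.12 in Oct4low BCCs, 9.70 ± 0.07 in Oct4med BCCs and 9.0 ± 0.03 in Oct4hi BCCs. It fell in Oct4hi BCCs, by 0.61 against Oct4low BCCs (SE 0.08, adjusted p = 0.000132) and by 0.71 against Oct4med BCCs (SE 0.09, adjusted p = 0.000267). Oct4med minus Oct4low was 0.10 for LRIG1 (adjusted p = 0.484).

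Among the phosphatases, DUSP5 and DUSP6, which act on ERK in the nucleus and the cytoplasm, had their lowest means in Oct4med BCCs. DUSP5 averaged 11.36 ± 0.04 in Oct4low BCCs, 10.73 ± 0.07 in Oct4med BCCs and 11.23 ± 0.10 in Oct4hi BCCs. It fell by 0.63 in Oct4med against Oct4low BCCs (SE 0.09, adjusted p = 0.00042), and was higher by 0.50 in Oct4hi than in Oct4med BCCs (SE 0.09, adjusted p = 0.00187). DUSP6 averaged 11.18 ± 0.07, 10.72 ± 0.13 and 10.92 ± 0.01 in Oct4low, Oct4med and Oct4hi BCCs. It fell by 0.47 in Oct4med BCCs (SE 0.09, adjusted p = 0.00252) and by 0.26 in Oct4hi BCCs (adjusted p = 0.0119), both against Oct4low BCCs. The other DUSP6 probe sets gave -0.40 (adjusted p = 0.0168) and -0.24 (adjusted p = 0.17) for Oct4med minus Oct4low. For Oct4hi minus Oct4low they gave -0.19 (adjusted p = 0.0932) and -0.08 (adjusted p = 0.558), so that call rests on 1 probe set. DUSP9 was lower in Oct4hi than in Oct4med BCCs (-0.42, adjusted p = 0.00955, or 0.065 without Oct4med replicate 1). DUSP1, DUSP2 and SPRED1 did not pass in any comparison, with Oct4hi minus Oct4low differences of 0.19, 0.02 and -0.02. PEA15, which holds ERK in the cytoplasm, was higher in Oct4hi than in Oct4low BCCs by 0.30 (adjusted p = 0.00433) and than in Oct4med BCCs by 0.37 (adjusted p = 0.00626).

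More ERK target genes were lower than higher in Oct4med against Oct4low BCCs. Of 11 tested, 6 were lower and none higher in Oct4med against Oct4low BCCs, where 11.7% of all genes were lower and 5.68% higher. In Oct4hi against Oct4low BCCs 3 were lower and 1 higher (14.7% and 20.4% of all genes). In Oct4hi against Oct4med BCCs 4 were higher and 1 lower (18.2% and 9.62% of all genes). Each count takes 1 probe set per gene, and other probe sets did not always share the call, as for PHLDA1 below. SPHK1, sphingosine kinase, averaged 8.42 ± 0.06 in Oct4low BCCs, 7.89 ± 0.06 in Oct4med BCCs and 8.45 ± 0.08 in Oct4hi BCCs. The SPHK1 differences were -0.53 for Oct4med minus Oct4low (SE 0.09, adjusted p = 0.00113) and 0.56 for Oct4hi minus Oct4med (SE 0.09, adjusted p = 0.000752), the direction seen in MAP3K8. MYC, which is on the immediate-early list too, fell by 0.43 in Oct4med against Oct4low BCCs (SE 0.08, adjusted p = 0.0038), and EMP1 by 0.48 (SE 0.12, adjusted p = 0.0139, or -0.38 with 0.128 without Oct4med replicate 1).

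Other targets differed in Oct4hi BCCs. ETV1, an ETS transcription factor, averaged 8.74 ± 0.14 in Oct4low BCCs, 8.45 ± 0.18 in Oct4med BCCs and 7.74 ± 0.16 in Oct4hi BCCs. It fell in Oct4hi BCCs, by 0.99 against Oct4low BCCs (SE 0.10, adjusted p = 2.56e-05) and by 0.71 against Oct4med BCCs (SE 0.12, adjusted p = 0.00173). Its other tested probe sets, all dimmer, gave smaller differences. For Oct4hi minus Oct4low they were -0.35, -0.23 and -0.09 (adjusted p = 0.00963, 0.121 and 0.577). For Oct4hi minus Oct4med they were -0.41, -0.34 and -0.19 (adjusted p = 0.0183, 0.073 and 0.341). On 225842_at, PHLDA1 fell by 0.61 in Oct4hi against Oct4low BCCs (SE 0.07, adjusted p = 4.72e-05). It fell by 0.40 there in Oct4med against Oct4low BCCs (adjusted p = 0.00473), while Oct4hi minus Oct4med was -0.21 (adjusted p = 0.0804). The other PHLDA1 probe sets did not share the Oct4med call, at -0.20 to 0.13 against Oct4low BCCs (adjusted p = 0.165 to 0.939). For Oct4hi minus Oct4low they gave -0.58 to -0.23 (adjusted p = 0.000205 to 0.0287). For Oct4hi minus Oct4med they gave -0.44 to -0.24, with adjusted p of 0.00181, 0.00516, 0.012 and 0.0651. EPHA4, an ephrin receptor, ran the other way, higher in Oct4hi than in Oct4low BCCs by 0.37 (adjusted p = 0.00308) and than in Oct4med BCCs by 0.43 (adjusted p = 0.0064, or 0.0725 without Oct4med replicate 1). Several marker lists also had genes lower in Oct4hi than in Oct4low BCCs, a comparison in which 14.7% of all genes were lower. Of 9 luminal breast markers 4 were tested and 3 of them were lower (median -0.62), with a mean level over the 5 with a probe set of 6.52 to 6.63 in Oct4low, 6.17 to 6.28 in Oct4med and 6.02 to 6.13 in Oct4hi arrays. Of the 4 tested basal and mesenchymal markers 3 were lower (median -0.35), and of the 14 immediate-early genes 8 (median -0.25). Their part in these differences, or in those of EREG, DUSP4 and SPRY1, was not tested.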

How the data were processed

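Total RNA of sorted MDA-MB-231 subsets was measured on 10 Affymetrix U133 Plus 2.0 arrays. Per the methods and the labels, the authors corrected the intensities for background, RMA normalized them on the log2 scale in BRB-Array Tools and left out features near background or with little change. The deposited log2 values cover 25750 probe sets, 18683 of them with 1 gene symbol, 799 with several and 6268 with none here. Genes removed by that filter cannot be counted, so shares are of measured genes.

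From these values, 13883 probe sets at or above the median of their array in at least 2 arrays were tested. A linear model with 1 mean per subset was run on all 10 arrays in limma 3.58.1 (R 4.3.3), two-sided, with adjustment by Benjamini-Hochberg over all tested probe sets and 0.05 as the threshold. The probe set with the highest mean stood for a gene (7644 genes). The fit was tested on simulated data. Levels were compared only within a probe set. The 4 genes and the pathway and marker lists were chosen with earlier results of these data known. Named genes followed a rule: the 4 genes with every probe set, EGFR, all tested ligands and feedback genes, and for each other role and comparison up to 3 genes past the threshold with no overlap of arrays and the largest change, plus the 4 genes most correlated with each of the 4. Promoters and locations came from RefSeq tables (GRCh38.p14), and no probe coordinates were used. Python 3.11.15 was used for these and the figures.

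Alternatives were the values quantile normalized again, arrays shifted to a common median, array weights, the replicate number as a block, each array left out, other filters, an intensity trend with a robust prior, only the subsets compared, a t-test and another probe set per gene. The t-test, called the methods' t-test, used the spread of each probe set alone, whereas the methods name a random variance model, so it is not their exact procedure. Precision is limited by the number of arrays.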

Additional observations from a re-analysis of the deposited data

Results flagged for a closer look

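In 2 of 76 groups of 4 arrays examined, 1 array lay far from its 3 replicates (Dixon's test at its 95% critical value of 0.829), where chance flags about 1 in 20 groups. PHLDA1 read 10.04 in Oct4hi replicate 4 and 9.89 to 9.91 in the other Oct4hi arrays, a gap of 0.894 of the range. SPRED1 read 8.1 in Oct4hi replicate 3 and 8.3 to 8.32 in the other Oct4hi arrays, a gap of 0.873 of the range. No group of EREG, MAP3K8, DUSP4 or SPRY1 was among them.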

How the results depend on the processing

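Of 180 recomputed differences of the 4 genes, 168 moved by less than the SD within subsets and 12 by more. Signs changed only for the differences nearest 0, EREG in Oct4hi against Oct4med BCCs (-0.09 to 0.11 with an array left out) and SPRY1 in Oct4med against Oct4low BCCs. DUSP4 moved most. Its Oct4hi minus Oct4low difference of -0.68 was -0.79 after quantile normalizing again and -0.93 with the probe set of highest variance, and its Oct4hi minus Oct4med difference of -0.33 was -0.48 and -0.60. With each array left out in turn, DUSP4 ranged between -0.51 and -0.20 for Oct4med minus Oct4low and between -0.49 and -0.17 for Oct4hi minus Oct4med. SPRY1 ranged between -0.16 and 0.06 for Oct4med minus Oct4low and between -1.37 and -1.15 for Oct4hi minus Oct4med.

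The count of pathway genes past the threshold ranged between 16 and 20 in Oct4hi against Oct4low BCCs, 8 and 15 in Oct4med against Oct4low BCCs and 9 and 17 in Oct4hi against Oct4med BCCs with each array left out. By the methods' t-test after Benjamini-Hochberg, 8 passed in Oct4med against Oct4low and 10 in Oct4hi against Oct4med BCCs. At an unadjusted p under 0.001 the t-test gave 10, 3 and 7 in the 3 comparisons, by another threshold and without the random variance model that the methods name. These alternative counts, and those with a block below, have no share of all genes beside them. A general loss of calls cannot be told from one of the list. For the 36 results of named pathway genes, 653 of 717 recomputed values stayed on their side of the threshold, 63 lost it and 1 reversed, ERBB3 in Oct4hi against Oct4med BCCs, at 0.20 with the probe set of highest variance.

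Replicate numbers gave no clear pairing of the arrays. Deviations of 8 same-number pairs correlated with r of -0.26 to 0.28, over 0.1 in 2, and those of other pairs with r of -0.51 to 0.51. Deviations of the 2 Oct4med arrays from their mean mirror each other. These r therefore cannot decide which arrays, if any, share an experiment. With the number as a block, 18, 8 and 12 pathway genes passed, against 19, 14 and 16 without it, so the count for Oct4med against Oct4low BCCs moved. The 2 Oct4med arrays, with SEs of 0.08 to 0.22 for the genes named, set the limit of these comparisons, and 1 probe set carries the differences of EREG.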
